A study of Mus musculus with 6 samples.

Results

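The mouse mitochondrial genome carries 37 genes, and all 37 have a row in the gene count table of this study of iASPP loss in primary mouse keratinocytes. They were taken as every row whose name starts with *mt-*, which is 37 of 55367 rows: 13 genes for proteins of the respiratory chain and ATP synthase, 2 genes for the rRNAs of the mitochondrial ribosome and 22 genes for mitochondrial tRNAs. RNA was sequenced from 6 cultures of keratinocytes isolated from the skin of day-2 pups. The replicate number in the sample titles was taken as the batch, giving 3 batches, each with 1 culture with tamoxifen and 1 without. All 6 cultures had the genotype *Ppp1r13l* flox/flox;Cre+ERT on a mixed C57BL/6 and 129/Sv background, with a tamoxifen-inducible Cre expressed from the ROSA26 locus and loxP sites around exon 8 of *Ppp1r13l*, the gene for iASPP. The 3 iASPP KO cultures received tamoxifen when the medium was replaced after 24 h, and the 3 iASPP WT cultures received none; cells were then kept for 4 days. An effect of the drug and an effect of the deletion therefore cannot be told apart. The edgeR p-values of single genes combine a gene's spread among the 3 batches with a spread estimated over all genes tested. In the main fit the former carried 2 degrees of freedom and the latter 8.17, so these p-values do not measure a gene's own spread alone.

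Mitochondrial DNA is a small circle that is transcribed on both strands into long precursor RNAs. Most tRNA genes lie between the other genes, and excision of the tRNAs from the precursor releases the rRNAs and mRNAs, which are then polyadenylated, modified and degraded at their own rates. Every protein needed for this, from the polymerase POLRMT to the ribosomal proteins, is encoded in the nucleus, as are most subunits of the respiratory chain.

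The libraries held between 20202517 and 25157117 gene counts, and each had counts on 20187 to 22621 genes. In the targeted gene, *Ppp1r13l*, iASPP KO libraries held 320, 395 and 139 counts in batches 1, 2 and 3, against 697, 1100 and 472 in iASPP WT. Its log2 fold change was −1.45 (SE 0.184, adjusted p = 0.00296, edgeR's quasi-likelihood test with batch in the model, adjusted by Benjamini-Hochberg over 14916 genes), and reads remained in every KO library. Summed markers of keratinocytes (*Krt5*, *Krt14*, *Trp63*, *Itga6*, *Itgb4*, *Col17a1*) were at 21622 to 28431 CPM (counts per 1000000 counts of a library) in all 6 libraries. Summed fibroblast markers were far higher in batch 3 (337 CPM in KO and 490 CPM in WT) than in the other 4 libraries (28.1 to 44.7 CPM), and melanocyte markers ranged from 222 to 822 CPM, macrophage and leukocyte markers from 43.5 to 84.7 CPM and endothelial markers from 2.15 to 11.3 CPM.

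Before any comparison, it matters which of the 37 genes could be counted at all. A read was 42 bases long, and a read that matched more than 1 place in the genome was not counted. In 13 of the 37 genes no library had a single count, and 3 counts, the limit that a count of 0 allows, correspond to 0.119 to 0.149 CPM in these libraries. The 13 are 5 protein genes (*mt-Co2*, *mt-Atp8*, *mt-Atp6*, *mt-Nd3* and *mt-Nd4l*) and 8 tRNA genes (*mt-Tn*, *mt-Ty*, *mt-Ts1*, *mt-Td*, *mt-Tk*, *mt-Tg*, *mt-Tr* and *mt-Th*). A sixth protein gene, *mt-Co3*, which codes for a core subunit of cytochrome c oxidase, had 1 count over all 6 libraries. Where the sequence of a gene also occurs elsewhere in the genome, a count of 0 says nothing about its RNA level, and these protein genes are subunits of cytochrome c oxidase, ATP synthase and complex I.

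The nuclear genome carries near-complete copies of a stretch of mitochondrial DNA. In GENCODE vM21 (GRCm38), 7 unprocessed pseudogenes lie side by side at chr1:24611535-24616197, on the minus strand, and match positions 6381 to 11042 of the mitochondrial genome in the same order. All 11 mitochondrial genes that lie wholly inside this stretch, 6 protein genes and 5 tRNA genes, had 0 or 1 count in total. Of the 26 genes outside it, 21 had 10 or more counts and 3 (*mt-Tn*, *mt-Ty* and *mt-Th*) had none. The following 42-base windows, given 5′ to 3′ on the mRNA strand from the GENCODE vM21 transcripts, show what an aligner saw. For *mt-Co2*, *mt-Atp6* and *mt-Co3* the window is the middle one of the gene and is set over the same window of the chromosome 1 copy, with no base different. For *mt-Nd3* it is the first window, and capitals mark the base that differs.
mt-Co2: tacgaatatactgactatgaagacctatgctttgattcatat
Gm28661: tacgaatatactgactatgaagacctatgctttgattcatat
mt-Atp6: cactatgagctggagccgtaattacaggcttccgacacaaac
Gm10925: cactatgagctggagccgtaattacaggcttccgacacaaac
mt-Co3: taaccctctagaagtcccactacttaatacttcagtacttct
Gm28437: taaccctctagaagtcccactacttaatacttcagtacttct
mt-Nd3: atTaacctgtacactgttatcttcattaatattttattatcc
Gm28438: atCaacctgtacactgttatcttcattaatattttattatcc

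For each gene, the share of its 42-base windows that also occur in an annotated nuclear gene was computed. It was 100% for *mt-Co2*, 99.9% for *mt-Co3*, 99.5% for *mt-Atp6*, 98.8% for *mt-Nd4l* and 98.0% for *mt-Nd3*, all of which had 0 or 1 count. It was 62.5% for *mt-Nd4* and 55.7% for *mt-Co1*, which each reach into the copied stretch at one end and kept counts on the rest of their length. *mt-Co1* also shares windows with *Gm13340*, a pseudogene on chromosome 2. It was 11.0% for *mt-Nd5*, 9.73% for *mt-Nd2*, 1.56% for *mt-Rnr2* and 0.816% for *mt-Cytb*, and no window was shared for *mt-Nd1*, *mt-Nd6*, *mt-Rnr1* or any tRNA gene. Among the 13 genes without a count, 4 had nearly all of their windows in an annotated nuclear gene (*mt-Co2*, *mt-Atp6*, *mt-Nd3* and *mt-Nd4l*). Of the other 9, *mt-Atp8* shares 1.23% of its windows and the 8 tRNA genes none, and *mt-Tn*, *mt-Ty* and *mt-Th* lie outside the chromosome 1 stretch. This search covered annotated transcripts only, so the sequence between the 7 pseudogenes, where the copies of *mt-Atp8* and of the 5 tRNA genes would lie, was not read here.

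The copies themselves held few counts. The 7 pseudogenes on chromosome 1 had 92 counts over all 6 libraries, of which 71 fell on *Gm28438*, the copy of *mt-Nd3*. *Gm28438* is also the one copy in which the comparison over the whole gene found a single difference, T3C, the mitochondrial base first, counted from the first base of the coding sequence (mitochondrial position 9461). *Gm28661*, *Gm10925*, *Gm28437*, *Gm10222* and *Gm28439* had no difference from the mitochondrial gene over the bases compared, and *Gm29216*, the copy of the end of *mt-Co1*, had 6 differences in 492 bases. KO and WT libraries were treated alike in this respect, so a fold change of *mt-Co1* or *mt-Nd4* rests on the uncopied part of the gene, and its level is understated.

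**Figure D1:**
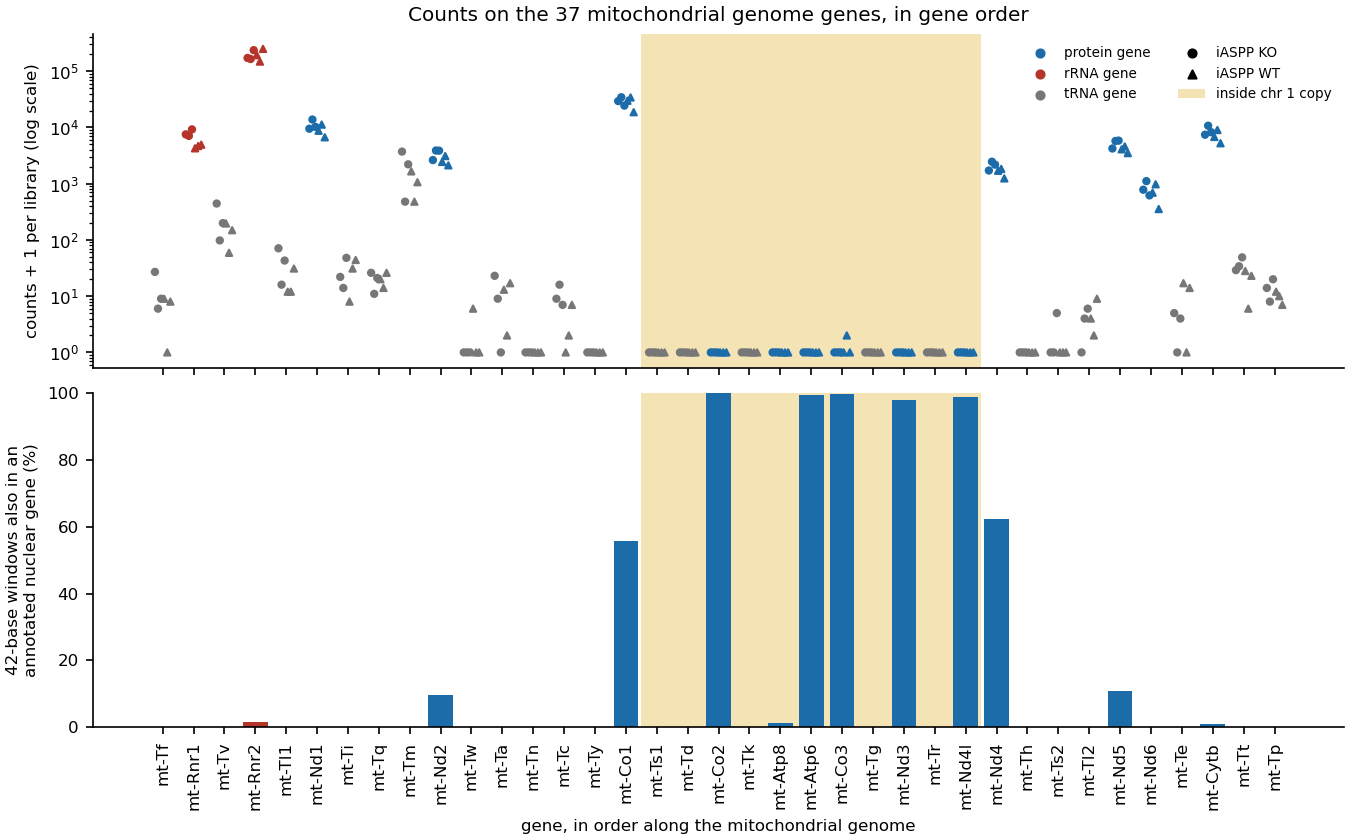
Upper panel, counts plus 1 (log scale) on each of the 37 genes in their order along the mitochondrial genome, with 1 point per library (circles iASPP KO, triangles iASPP WT, colour by kind of gene). Lower panel, the percentage of each gene's 42-base windows that also occur in an annotated nuclear gene. The shaded stretch holds the 11 genes that lie wholly inside the chromosome 1 copy, all of them at 0 or 1 count.

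Among the genes that could be counted, 16S rRNA led and the protein genes spread over a wide range of levels. Levels per length, as CPM per kilobase of gene averaged over all 6 libraries without TMM scaling, were 5473 for *mt-Rnr2* (16S rRNA), 1016 for *mt-Tm* (the methionine tRNA), 803 for *mt-Co1* (the catalytic subunit of cytochrome c oxidase), 456 for *mt-Nd1*, 301 for *mt-Cytb* and 289 for *mt-Rnr1* (12S rRNA). *mt-Nd2* was at 127, *mt-Tv* (the valine tRNA) at 120, *mt-Nd5* at 112, *mt-Nd6* at 62.7 and *mt-Nd4* at 58.8. *mt-Rnr2* did not overlap with any other gene, its libraries lying between 3726 and 7789 CPM per kilobase. Libraries of *mt-Tm* ran from 275 to 2195 CPM per kilobase, across the whole range of *mt-Co1* (597 to 946), and those of *mt-Cytb* (226 to 398) and *mt-Rnr1* (194 to 437) overlapped, so the order of these neighbours is not set beyond their spread. Levels were also scaled to the windows of a gene that occur in no annotated nuclear gene (CPM per kilobase of such windows). *mt-Co1* then stood at 1862 CPM and *mt-Nd4* at 161 CPM, and *mt-Nd4* lay above *mt-Nd2* (146), *mt-Nd5* (129) and *mt-Nd6* (68.1). Both tRNA genes also rose on this scale, *mt-Tm* to 2503 CPM and *mt-Tv* to 297 CPM. They share no window with a nuclear gene and rose because each holds only 28 windows in its 69 bases. By these means *mt-Tm* stayed above *mt-Co1*, and *mt-Tv* above *mt-Nd4*, but neither order is set beyond the spread of the libraries. Per kilobase of gene, libraries of *mt-Tv* ran from 33.4 to 262 CPM, across the whole range of *mt-Nd4* (44.6 to 75.7). The rRNA was depleted before library preparation. How far that step removed mitochondrial rRNA was not tested, so counts on both rRNA genes need not follow their RNA levels.

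After a filter on low counts, 17 of the 37 genes were tested (7 protein genes, both rRNA genes and 8 tRNA genes), and 20 were not. At an adjusted p of 0.05, *mt-Rnr1* and *mt-Tm* were higher in iASPP KO and none was lower (edgeR), and DESeq2 likewise called none lower. Over all 14916 genes tested, 4.12% were called, 2.17% as higher in KO and 1.95% as lower. Log2 fold changes were positive in 14 of the 17 genes and negative in 3, with a median of 0.38, against a median of 0.01 over all genes tested. The unadjusted p was below 0.05 in 9 of the 17 (6 protein genes, 1 rRNA gene and 2 tRNA genes), all with the higher level in KO, where 16.7% of all genes tested had such a p in either direction and 8.66% of all genes tested had an unadjusted p below 0.05 in that direction. Levels differed among batches (adjusted p of the batch terms below 0.05) in 5 of the 17, *mt-Tv*, *mt-Rnr2*, *mt-Tm*, *mt-Co1* and *mt-Nd6*, and in 15.8% of all genes tested. The 17 genes are cut from shared precursors and counted in the same 6 libraries, so they are not 17 separate observations. As in any bulk sample, fewer cells of a type and less RNA per cell cannot be told apart.

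**Figure D2:**
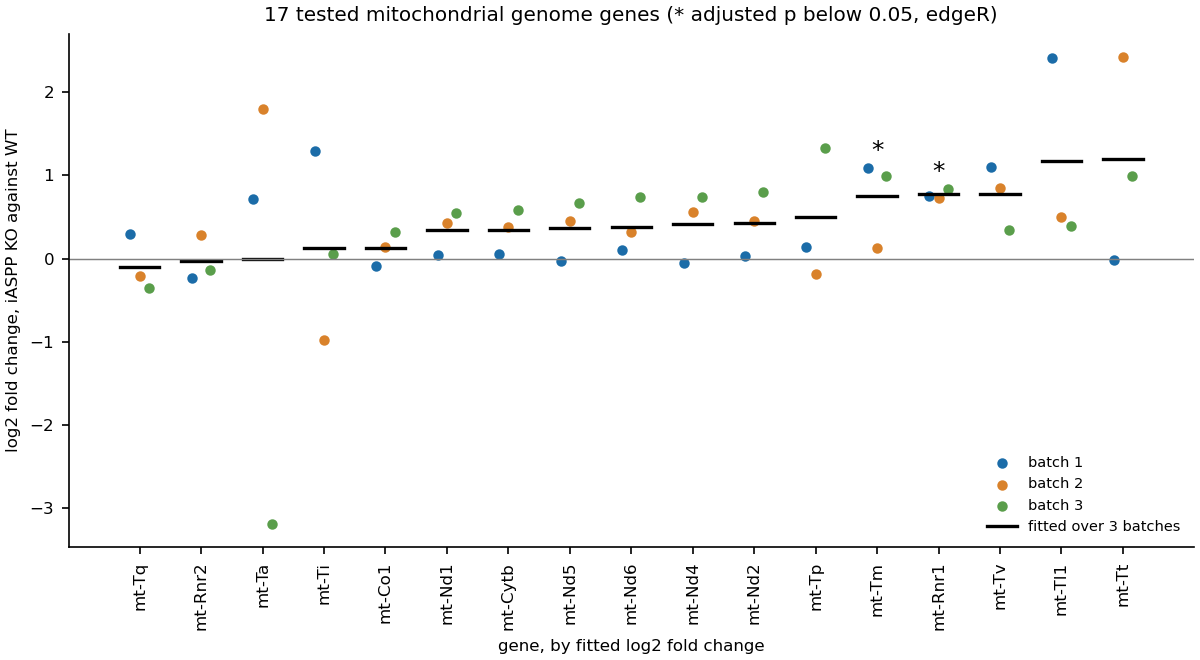
Log2 fold change of iASPP KO against iASPP WT for the 17 mitochondrial genome genes tested, in the order of the fitted value (bar), with 1 point for each of the 3 batches. The 3 batches of *mt-Rnr1* lie close together between 0.73 and 0.84. Those of the low tRNA genes *mt-Ta*, *mt-Tt*, *mt-Ti* and *mt-Tl1* spread over more than 2 log2 units. Asterisks mark an adjusted p below 0.05.

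*mt-Rnr1*, the 12S rRNA of the small mitochondrial ribosomal subunit (955 bases, positions 70 to 1024), rose in every batch by nearly the same factor. Its level was 335, 318 and 392 CPM (scaled by TMM, as are all CPM values of single genes from here on) in KO batches 1, 2 and 3, from 7525, 7081 and 9234 counts. In WT it was 199, 192 and 220 CPM, from 4250, 4669 and 4933 counts. Every KO library lay above every WT library, which held for 5.26% of all genes tested and for no other of the 17 mitochondrial genes; the reverse held for 5.46% of all genes and for none of the 17. The means were 348 ± 39.0 CPM in KO and 203 ± 14.6 CPM in WT (SD, n = 3 each), and the log2 fold change was 0.77 (SE 0.107, adjusted p = 0.00440, edgeR), and 0.75, 0.73 and 0.84 in the single batches. Leaving out any 1 batch kept the call, at log2 fold changes of 0.74 to 0.80. Without the replicate block, that is, without batch in the model, the log2 fold change was 0.78 and the adjusted p 0.973, and edgeR called no gene of the whole table (691 genes at an unadjusted p below 0.05).

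*mt-Rnr2*, the 16S rRNA of the large subunit, lies 69 bases downstream of *mt-Rnr1*, beyond *mt-Tv*, and did not follow it. It stood at 7664, 7400 and 10064 CPM in KO and at 9028, 6082 and 11088 CPM in WT. KO was below WT in batches 1 and 3 and above it in batch 2, and the groups overlapped. The log2 fold change was −0.03 (SE 0.121, adjusted p = 0.935, edgeR), and its batches differed from each other (adjusted p of the batch term 0.0341), which was not found for *mt-Rnr1* (0.380).

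Set against each other within a library, which needs no scaling between libraries, the rRNA genes gave the same picture. *mt-Rnr1* counts were 4.37%, 4.30% and 3.90% of *mt-Rnr2* counts in KO batches 1, 2 and 3. In WT they were 2.21%, 3.15% and 1.98%. No KO library overlapped with a WT library, and the mean log2 ratio of KO to WT within batch was 0.80 ± 0.31 (SD, n = 3 batches). An exact permutation test (two-sided, 3 against 3) gave p = 0.1, and the paired one over 3 batches p = 0.25, each the smallest that its design allows. *CT010467.1*, a gene on chromosome 17 that GENCODE annotates as rRNA and that held 99.0% of the counts on 354 nuclear genes annotated as rRNA, was looked up after these values were seen. It had 19093, 2905 and 4234 counts in KO and 20649, 4299 and 4955 in WT, with a log2 fold change of −0.30 (SE 0.110, adjusted p = 0.185, edgeR) and batch 1 far above the other batches. It was lower in KO in each batch without passing the threshold, and how far it reports the rRNA depletion was not tested.

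The protein genes are described by complex. Complex I, NADH dehydrogenase, takes 7 subunits from the mitochondrial genome, of which *mt-Nd1*, *mt-Nd2*, *mt-Nd4*, *mt-Nd5* and *mt-Nd6* were tested. None passed the threshold, and their log2 fold changes lay between 0.34 and 0.43.

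*mt-Nd1* stood at 423, 621 and 434 CPM in KO batches 1, 2 and 3 and at 409, 460 and 298 CPM in WT. KO exceeded WT by little in batch 1 and by more in the others, and the groups overlapped. The log2 fold change was 0.34 (SE 0.124, adjusted p = 0.190).

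*mt-Nd2* stood at 117, 175 and 164 CPM in KO and at 114, 127 and 94.4 CPM in WT. Its 3 pairs ran the same way, and KO batch 1 lay below WT batch 2. With a log2 fold change of 0.43 (SE 0.146, adjusted p = 0.158), it came nearest to the threshold among the protein genes, and it passed under 1 of 11 alternatives, when every gene with a count was kept (adjusted p = 0.0286).

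*mt-Nd4*, counted only on the part of the gene that is not copied on chromosome 1, stood at 76.3, 110 and 92.7 CPM in KO and at 79.4, 74.9 and 55.3 CPM in WT. Batch 1 was slightly lower in KO and the others higher (log2 fold change 0.42, SE 0.157, adjusted p = 0.206). *mt-Nd5*, the longest gene of the genome, stood at 188, 258 and 248 CPM in KO and at 191, 188 and 156 CPM in WT. It showed the same arrangement of batches as *mt-Nd4* (log2 fold change 0.37, SE 0.141, adjusted p = 0.214).

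*mt-Nd6* is the one protein gene read from the opposite DNA strand, so it comes from a different precursor than the other protein genes. It stood at 34.7, 49.8 and 26.3 CPM in KO and at 32.4, 39.9 and 15.7 CPM in WT. KO exceeded WT in all 3 batches, and the batches differed from each other (adjusted p of the batch term 0.0110), with batch 3 lowest in both groups. The log2 fold change was 0.38 (SE 0.164, adjusted p = 0.272). As a percentage of the summed counts of the protein genes on the other strand, *mt-Nd6* was at 1.42%, 1.56% and 1.13% in KO and at 1.29%, 1.53% and 0.943% in WT (exact permutation test of 3 against 3 libraries, two-sided, p = 0.6). Within batches it was higher in KO in 3 of 3, at log2 ratios of 0.14, 0.03 and 0.26 (exact paired permutation test, two-sided, p = 0.25, the smallest that 3 pairs allow).

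*mt-Cytb*, the cytochrome b subunit of complex III, stood at 331, 482 and 349 CPM in KO and at 318, 369 and 233 CPM in WT. KO was higher in each batch, least so in batch 1 (log2 fold change 0.34, SE 0.126, adjusted p = 0.192). *mt-Co1*, the catalytic subunit of complex IV, stood at 1311, 1545 and 1039 CPM in KO and at 1397, 1398 and 831 CPM in WT. It was lower in KO in batch 1 and higher in batches 2 and 3, and its log2 fold change of 0.13 (SE 0.116, adjusted p = 0.671) was the smallest of the protein genes. For complex IV subunits *mt-Co2* and *mt-Co3*, for the ATP synthase subunits *mt-Atp6* and *mt-Atp8* and for *mt-Nd3* and *mt-Nd4l* of complex I, no comparison could be made.

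Taken by batch, the 7 protein genes stood together, and how far KO lay above WT depended on the batch. Their median log2 fold changes were 0.04, 0.43 and 0.67 in batches 1, 2 and 3. Summed fibroblast markers were at 337 CPM in KO and 490 CPM in WT in batch 3, at 44.7 CPM in KO and 31.5 CPM in WT in batch 2 and at 29.8 CPM in KO and 28.1 CPM in WT in batch 1, and their part in these differences was not tested. Over all 3 batches the median of the 7 was 0.37 (range 0.13 to 0.43), and 4 of them were higher in KO in each batch, as were 19.5% of all genes tested.

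The composition of the protein gene counts, which needs no scaling between libraries, gave *mt-Co1* a smaller share in KO than in WT in each batch. *mt-Co1* took 52.8%, 47.7% and 44.2% of the counts on protein genes in KO batches 1, 2 and 3, and 55.0%, 52.6% and 49.4% in WT. The difference of KO minus WT was −2.14, −4.91 and −5.22 percentage points, while the groups overlapped. *mt-Nd1*, *mt-Nd2*, *mt-Nd5*, *mt-Nd6* and *mt-Cytb* took a larger share in KO in all 3 batches and *mt-Nd4* in 2 of 3. With counts weighted per base of gene length, *mt-Nd5* was higher in 2 of 3 (−0.0164 percentage points in batch 1), and the mean difference of *mt-Nd6* was 0.241 in place of 0.114 percentage points. *mt-Cytb*, for example, took 13.3%, 14.9% and 14.8% in KO and 12.5%, 13.9% and 13.8% in WT. Shares of a whole are tied to each other, so a lower share of *mt-Co1* raises the others, and no test was made.

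The tRNA genes are short, from 59 to 75 bases, and hold 18 to 34 windows of read length. A read that also reached into a neighbouring gene on the same strand was not counted. The study fragmented the RNA and selected its library fragments by size. How far RNAs this short were recovered was not tested, so counts on tRNA genes need not follow tRNA levels. *mt-Tm* and *mt-Tv*, the tRNA genes with the most counts, and *mt-Tl1*, a leucine tRNA, are shown as transcribed, 5′ to 3′, from GENCODE vM21 (GRCm38, mitochondrial positions 3845 to 3913, 1025 to 1093 and 2676 to 2750, plus strand), with the anticodon in capitals and T for U.
mt-Tm: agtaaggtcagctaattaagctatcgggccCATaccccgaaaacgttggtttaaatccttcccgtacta
mt-Tv: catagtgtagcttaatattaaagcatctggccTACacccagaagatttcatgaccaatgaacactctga
mt-Tl1: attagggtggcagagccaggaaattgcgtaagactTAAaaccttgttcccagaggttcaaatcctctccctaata

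*mt-Tm*, which decodes methionine and is the sole mitochondrial tRNA for start codons, held 69.9% to 84.9% of all tRNA gene counts. Its level was 166, 21.5 and 93.8 CPM in KO batches 1, 2 and 3, from 3718, 478 and 2208 counts. In WT it was 77.5, 19.6 and 47.3 CPM, from 1654, 478 and 1061 counts. The KO level was about double the WT level in batches 1 and 3 and close to it in batch 2, where the level was lowest. Means were 93.6 ± 72.1 CPM in KO and 48.1 ± 29.0 CPM in WT (SD, n = 3 each), so the groups overlapped. The log2 fold change within batch was 0.76 (SE 0.180, adjusted p = 0.0450, edgeR), with 1.09, 0.13 and 0.99 in the 3 batches. The call was lost without batch 1 (log2 fold change 0.58, adjusted p = 0.258) and without the replicate block (log2 fold change 0.96, adjusted p = 0.977). The batches differed from each other by up to 2.46 log2 units (adjusted p of the batch term 3.09e-04), more than KO differed from WT.

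*mt-Tm* is followed without a gap by *mt-Nd2*, so both lie on the same precursor, yet their counts did not keep one ratio. *mt-Tm* counts were 141%, 12.3% and 57.2% of *mt-Nd2* counts in KO batches 1, 2 and 3, and 67.9%, 15.4% and 50.05% in WT. The ratio was higher in KO in 2 of 3 batches (exact paired permutation test, two-sided, p = 0.75, and p = 0.9 for 3 against 3 libraries), and neither test can pass 0.05 in this design.

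*mt-Tv*, which lies between the rRNA genes, stood at 19.7, 4.35 and 8.41 CPM in KO and at 9.14, 2.38 and 6.59 CPM in WT. KO was higher in each batch, and batch 2 was lowest in both groups, as for *mt-Tm*. Its log2 fold change of 0.78 (SE 0.263, adjusted p = 0.156, edgeR) equalled that of its neighbour *mt-Rnr1* in size with more than double the standard error. It passed the threshold only without batch 3 (log2 fold change 1.00, adjusted p = 0.0170, edgeR). By batch the 2 genes did not keep one ratio. *mt-Tv* counts relative to *mt-Rnr1* counts gave log2 ratios of KO to WT of 0.36, 0.14 and −0.48 in batches 1, 2 and 3. *mt-Tl1* had 70, 15 and 42 counts in KO and 11, 11 and 30 in WT (log2 fold change 1.17, adjusted p = 0.546), the excess lying mostly in batch 1.

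The other 5 tRNA genes tested had at most 48 counts in a library. *mt-Tt*, for threonine, had 28, 33 and 48 counts in KO and 27, 5 and 22 in WT (log2 fold change 1.20, adjusted p = 0.561). *mt-Tp*, for proline, had 13, 7 and 19 against 11, 9 and 6 (log2 fold change 0.50, adjusted p = 0.877). These 2 genes lie next to each other on opposite strands. *mt-Ti*, for isoleucine, had 21, 13 and 47 counts in KO and 7, 30 and 43 in WT (log2 fold change 0.12, adjusted p = 0.964). *mt-Tq*, for glutamine, had 25, 10 and 20 against 19, 13 and 25 (log2 fold change −0.10, adjusted p = 0.970). *mt-Ta*, for alanine, had 22, 8 and 0 against 12, 1 and 16 (log2 fold change −0.01, adjusted p = 0.999). Counts this low set no direction for any of the 5. The 6 tRNA genes that had counts but were not tested, *mt-Tf*, *mt-Tc*, *mt-Te*, *mt-Tl2*, *mt-Tw* and *mt-Ts2*, had 4 to 54 counts over all 6 libraries.

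As a share of all counts of a library, the mitochondrial genome did not differ in one direction. The 37 genes took 0.976%, 1.04% and 1.37% of counts in KO batches 1, 2 and 3 and 1.19%, 0.868% and 1.45% in WT. KO was below WT in batches 1 and 3 and above it in batch 2, with means of 1.13% ± 0.214 and 1.17% ± 0.292 (SD, n = 3 each). The exact binomial 95% interval of the share in WT batch 3, the shallowest library, ran from 1.45% to 1.46% and covers counting error only, so depth was not what limited the comparison. *mt-Rnr2* alone made up 67.3% to 85.0% of the counts on the 37 genes, so the total followed that gene.

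Split by kind of gene, the shares went different ways. rRNA genes took 0.732%, 0.730% and 1.11% in KO and 0.922%, 0.608% and 1.26% in WT, lower in KO in batches 1 and 3. Protein genes took 0.227%, 0.306% and 0.250% in KO and 0.254%, 0.258% and 0.187% in WT, a ratio of KO to WT of 0.894, 1.19 and 1.34 by batch. tRNA genes took 0.0178%, 0.00290% and 0.0118% in KO and 0.00922%, 0.00241% and 0.00686% in WT. The tRNA share was the one that was higher in KO in all 3 batches, at ratios of 1.94, 1.20 and 1.72. In batches 1 and 3 the excess rests mainly on *mt-Tm*. In batch 2 *mt-Tm* had 478 counts in both KO and WT, of 684 and 607 counts on all tRNA genes. None of these sums was tested.

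**Figure D3:**
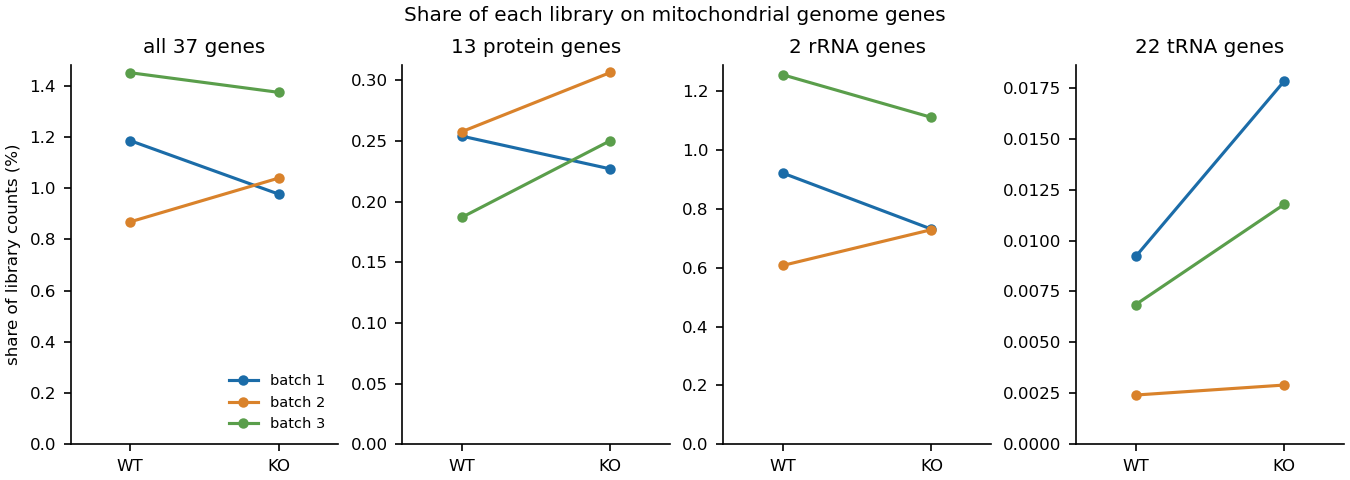
Share of each library's counts (%) on all 37 mitochondrial genome genes and on the protein, rRNA and tRNA genes apart, with the WT and KO culture of a batch joined (linear axes from 0). The lines of the total, of the rRNA genes and of the protein genes run in different directions by batch, and the tRNA share is higher in KO in all 3 batches, by ratios of 1.20 to 1.94.

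Few nuclear genes of mitochondrial function passed the test. In 10 lists with 237 tested genes, 1 gene was called higher in KO and none lower by edgeR, where 4.12% of all genes tested were called, and the median log2 fold change of the 237 was 0.04. The called gene was *Ndufa13*, a nuclear subunit of complex I, at 145, 125 and 155 CPM in KO and 98.5, 102 and 97.3 CPM in WT. Every KO library lay above every WT library (log2 fold change 0.51, SE 0.120, adjusted p = 0.0430), though the call was lost without batch 1 (log2 fold change 0.49, adjusted p = 0.185), without batch 2 (0.62, adjusted p = 0.0979) and without the replicate block (0.52, adjusted p = 0.973). In these lists DESeq2 called 3 genes higher and 1 lower of 233, where it called 7.37% of all genes it tested. Without batch 3, edgeR called 5 higher and 2 lower of 236, against 9.53% of all genes tested in that fit.

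Medians of the lists lay between −0.17 and 0.18. Among the 36 nuclear subunits of complex I the median log2 fold change was 0.11, with 29 of 36 positive (50.6% of all genes tested) and 8 higher in KO at an unadjusted p below 0.05 (8.66% of all genes tested). Medians were 0.18 for complex III (9 genes), 0.16 for complex IV (11 genes), 0.10 for ATP synthase (18 genes), −0.001 for complex II (4 genes), which has no mitochondrially encoded subunit, and 0.04 for the 78 mitochondrial ribosomal proteins, the partners of *mt-Rnr1* and *mt-Rnr2*. The factors that copy and transcribe mitochondrial DNA (20 genes) had a median of −0.09, those that process and modify its RNA (33 genes) −0.04, the mitochondrial aminoacyl-tRNA synthetases (20 genes) −0.13 and the regulators of mitochondrial biogenesis (8 genes) −0.17, with none called by edgeR and 0, 3, 4 and 1 genes lower at an unadjusted p below 0.05, which 8.09% of all genes tested were.

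*Polrmt*, the mitochondrial RNA polymerase, stood at 24.7, 19.9 and 20.2 CPM in KO and at 30.5, 29.5 and 21.7 CPM in WT (log2 fold change −0.33, SE 0.166, adjusted p = 0.366). It was lower in KO in each batch without passing the threshold. *Tfam*, which packages mitochondrial DNA and starts its transcription, stood at 27.4, 24.7 and 48.9 CPM in KO and at 31.3, 34.9 and 48.7 CPM in WT (log2 fold change −0.23, SE 0.152, adjusted p = 0.529). *Lrpprc*, which stabilises mitochondrial mRNAs, had a log2 fold change of −0.11 (SE 0.136, adjusted p = 0.770), positive in batch 2 alone.

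**Figure D4:**
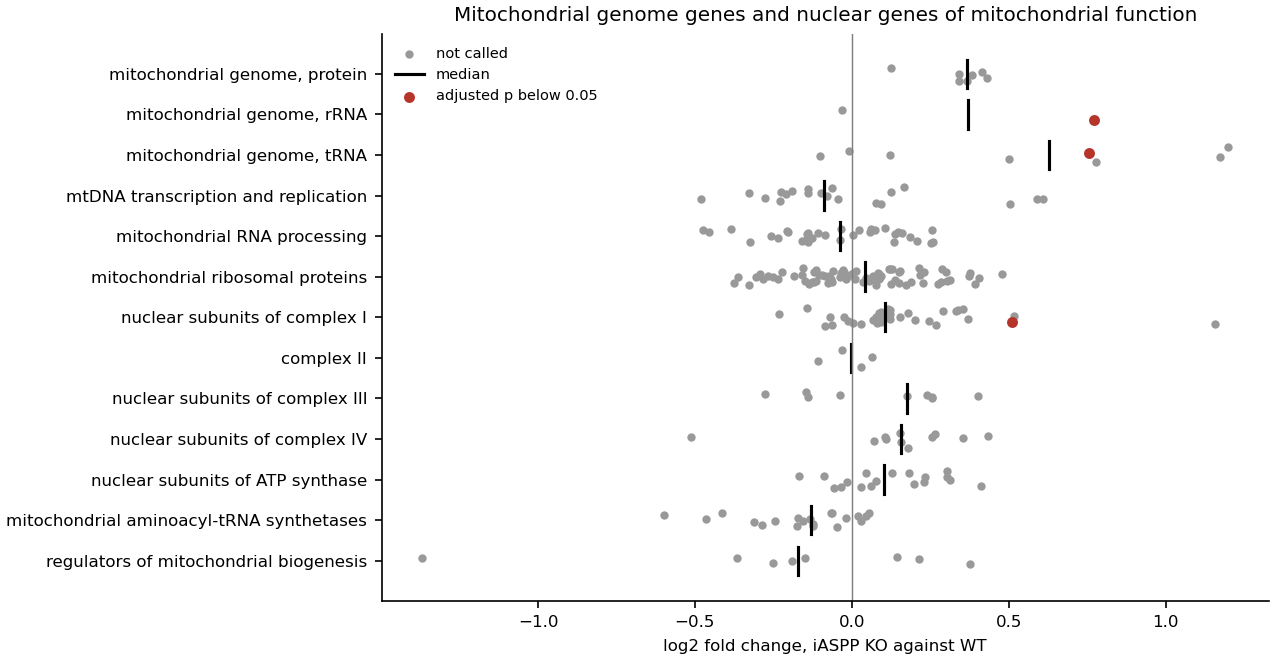
Log2 fold change of iASPP KO against iASPP WT for each tested mitochondrial genome gene (top 3 rows, by kind) and for the tested genes of 10 nuclear lists of mitochondrial function, with the median of each row as a bar and genes with an adjusted p below 0.05 in red. Medians of the nuclear lists lie between −0.17 and 0.18, and those of the mitochondrial protein and tRNA genes are 0.37 and 0.63.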

How the data were processed

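Total RNA was ribodepleted and sequenced as single 42-base reads. The authors deposited raw counts per gene: per the labels and the file header, reads were trimmed (Cutadapt 2.10), aligned to GRCm38/mm10 with STAR 2.7.3 and counted over exons by gene name with featureCounts 2.0.0, reverse stranded; multi-mapping reads and reads over more than 1 gene were not counted. The authors also deposited their own fold changes and p-values, which were not used.

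Here edgeR 4.0.16 (R 4.3.3) fitted batch and condition to all 6 libraries (filterByExpr, TMM, quasi-likelihood test, Benjamini-Hochberg over 14916 genes, threshold 0.05); the study's own batch-adjusted test, DESeq2 (1.42.0 here), was an alternative, and the code was tested on simulated data. Batch is the replicate number in the sample titles, and the pairing of KO with WT rests on it. Within batches so defined, KO and WT deviations correlated at 0.525, 0.612 and 0.733. Log2 fold changes of single batches used a prior count of 2. The members and lists were chosen with earlier results of these data known. All 37 mitochondrial genes are accounted for; tRNA genes were named with values where tested, and of the nuclear lists the called genes, *Polrmt*, *Tfam* and *Lrpprc* were named. Sequence windows were compared in Python 3.11.15 with GENCODE vM21 transcripts, in which all 37 genes had the same position and length as in the count table. The labels give 1 mM tamoxifen and the study's methods a dose in the micromolar range. Depth and counting precision stand in the report. Alternatives were other scalings, filters and dispersions, no batch term, and each batch left out. The test of the batch terms, the paired permutation tests, the shares of all genes in other fits and the *CT010467.1* values were added after the data were seen. The plan set no test for ratios within the mitochondrial counts. The permutation tests of 3 against 3 libraries and the ratios of tRNA genes to their neighbours were therefore outside it.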

Additional observations from a re-analysis of the deposited data

How the results depend on the processing

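Over 11 alternatives, *mt-Rnr1* passed in 10 (log2 fold change 0.74 to 0.80) and *mt-Tm* in 9 (0.58 to 1.05), *mt-Nd2* and *mt-Tv* in 1 each and the other 13 in none where they were tested. Without the replicate block (the batch term), counts fell to 0 higher and 0 lower over all genes (691 at an unadjusted p below 0.05), 0 among the mitochondrial genes (1 at an unadjusted p below 0.05) and 0 in the nuclear lists, and *Ppp1r13l* gave −1.38 (adjusted p = 0.973). Keeping every gene with a count gave 624 higher and 491 lower over all genes, 3 mitochondrial genes higher, and 2 higher and 1 lower in the nuclear lists. DESeq2 gave 3 higher and 1 lower in the nuclear lists, and robust dispersion 1 lower. Leaving out 1 batch gave 169 to 793 genes higher and 117 to 662 lower over all genes (the highest without batch 3), 1 to 3 mitochondrial genes, and 0 to 5 higher and 0 to 2 lower in the nuclear lists. Reversed signs, none of them in a called gene, were *mt-Ta* without the replicate block (0.0275), in DESeq2 (0.0837) and with every gene kept (0.0362), and, with 1 batch left out, values that crossed 0 in *mt-Ta* (−1.51 to 1.65), *mt-Rnr2* (−0.184 to 0.0754), *mt-Ti* (−0.478 to 0.719), *mt-Tq* (−0.316 to 0.0486), *mt-Tp* (−0.0254 to 0.862) and *Lrpprc* (−0.277 to 0.0149). The cause of these changes was not tested. Of the other fold changes of single genes, 207 kept direction and side of the threshold. Of 28 values of shares within the protein genes, 27 moved by less than their spread, *mt-Nd6* per base of gene length being the other. Shares of library counts under 4 other denominators moved by less than their spread, but the mean log2 ratio of all 37 genes, −0.0329, changed sign to 0.0428 (TMM effective library size) and 0.0209 (nuclear protein-coding genes). With 1 batch left out it ran from −0.179 to 0.0905, and that of the rRNA genes from −0.255 to 0.0433. With 2 residual degrees of freedom and 3 batches, differences of the size seen in the protein genes could not be settled, and counts on the low tRNA genes set no direction.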
